A study of Mus musculus with 40 samples.

Results

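The nuclear genes of the respiratory chain and ATP synthase encode the subunits and several assembly factors of complexes I to V of the inner mitochondrial membrane. They were taken as the protein-coding genes outside the mitochondrial chromosome whose symbols begin with Nduf (subunits and assembly factors of complex I), Sdh (complex II), Uqcr or Uqcc (complex III), Cox4 to Cox8 (complex IV) or Atp5 (ATP synthase), with at least 10 counts in at least 5 of the 40 libraries. This gave 95 of the 41388 genes in the count tables, and 90 of the 95 had at least 10 counts in every library. They comprise 7 core subunits, 29 accessory subunits and 8 assembly factors of complex I, 4 subunits of complex II, 8 subunits and 3 assembly factors of complex III, 11 widely expressed subunits of complex IV with 8 alternative isoforms or associated proteins, and 5 F1 subunits, 11 Fo or stalk subunits and 1 further factor (Atp5s) of ATP synthase.

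The libraries came from forebrains of 21-day-old mice of both sexes that express the EGFP/Rpl10a fusion, a tagged protein of the cytoplasmic ribosome, after Cre recombination. RBP4-TRAP mice carry the transgene Tg(RBP4-cre)KL100Gsat/Mmcd, which drives Cre in layer 5 pyramidal neurons, and VGAT-TRAP mice carry the allele Slc32a1tm2(cre)Lowl/J, with Cre at the vesicular GABA transporter gene, which drives it in GABAergic neurons. Each line gave 5 pools of 2 to 3 forebrains, and each pool gave 4 samples: whole cell homogenate (WCH), ribosome-bound RNA captured from it by the tag (TRAP), the synaptoneurosome fraction of the homogenate (SNF), and ribosome-bound RNA captured from SNF (SynapTRAP, ST). The labels name the tissue cortex, whereas the methods describe whole forebrain dissections, and no treatment is named.

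The respiratory chain passes electrons from NADH (complex I) and succinate (complex II) through complex III to oxygen at complex IV and pumps protons across the inner membrane, and ATP synthase uses that gradient to make ATP. Most of its proteins are encoded in the nucleus, made on cytoplasmic ribosomes and imported, while a small set of core subunits is encoded by mitochondrial DNA and made on ribosomes inside the organelle. Neurons depend heavily on this pathway, and mitochondria are found in somata, dendrites and axon terminals.

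Promoter sequences are shown because a large share of the genes moved together between fractions, and because NRF1, YY1 and ETS-family proteins are transcription factors long associated with nuclear genes of oxidative phosphorylation. RefSeq promoter windows (GRCm38.p6, 250 bases before to 50 bases after the start) were matched for 79 of the 95 genes. The motif CGCATGCG, the palindromic core of NRF1 sites, was found in 10 of them (12.7%), against 2.67% of the 16300 promoters of coding genes. AAGATGGC, a YY1 motif, was found on either strand in 11 (13.9% against 3.31%), and CCGGAAGT, an ETS motif, in 5 (6.33% against 5.57%). At least 1 of the 3 motifs was in 25 windows (31.6%, against 10.9% of coding genes). The 16300 coding genes were not limited by the count rule for the 95, which 14539 coding genes off the mitochondrial chromosome met. Their windows were the first listed for each gene, whereas those of the 79 were the nearest to the 5′ end of the gene. None of the 3 motifs contains another, and a match is a description of the window only. The 10 windows with the NRF1 core are printed with the motif in capitals, 5′ to 3′ on the strand of the gene.
Atp5g2, chr15:102671065-102671104, minus strand: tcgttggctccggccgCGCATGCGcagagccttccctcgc
Atp5k, chr5:108434425-108434464, minus strand: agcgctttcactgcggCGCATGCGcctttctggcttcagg
Atp5l, chr9:44920960-44920992, minus strand: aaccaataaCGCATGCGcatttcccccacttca
Cox6a1, chr5:115349096-115349135, minus strand: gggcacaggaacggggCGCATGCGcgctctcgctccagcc
Ndufa8, chr2:36049329-36049358, minus strand: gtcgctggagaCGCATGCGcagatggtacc
Ndufa11, chr17:56717687-56717726, plus strand: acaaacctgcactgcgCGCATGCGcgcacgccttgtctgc
Ndufaf4, chr4:24897955-24897994, plus strand: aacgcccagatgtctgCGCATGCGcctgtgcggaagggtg
Ndufaf5, chr2:140170652-140170681, plus strand: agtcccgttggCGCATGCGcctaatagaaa
Uqcr11, chr10:80406808-80406837, minus strand: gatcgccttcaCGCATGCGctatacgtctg
Uqcrc1, chr9:108936668-108936697, plus strand: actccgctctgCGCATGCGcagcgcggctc

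These windows lie in the promoters of genes that did not all behave alike. Between TRAP and WCH, 6 of the 10 were called higher in RBP4-TRAP and 9 of the 10 in VGAT-TRAP by the test described with that comparison, where 8.37% and 21.0% of all genes tested were. Of the 69 windows without the motif, 50 and 64 belonged to genes called higher. Cox6a1 and Ndufaf4 stood at opposite ends of the change between SNF and WCH. The YY1 motif lies just after the start in most of its windows, 4 of which are printed to show its place, with the motif in capitals.
Ndufa9, chr6:126849097-126849126, minus strand: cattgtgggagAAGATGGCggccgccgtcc
Ndufaf8, chr11:120098933-120098962, plus strand: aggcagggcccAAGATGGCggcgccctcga
Ndufc1, chr3:51408915-51408944, minus strand: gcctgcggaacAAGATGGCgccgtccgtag
Ndufs7, chr10:80249462-80249491, plus strand: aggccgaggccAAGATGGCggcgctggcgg
The ETS motif occurs in the reverse orientation (in capitals) near the start of Cox8a, the widely expressed isoform of the smallest complex IV subunit.
Cox8a, chr19:7217604-7217633, minus strand: atttccgaaatACTTCCGGctcgggcgtcc
No motif of the 3 was in the window of its muscle isoform Cox8b, of which the 150 bases before the start are printed because this gene and Cox6a2 differed most between the lines.
Cox8b, chr7:140900447-140900596, minus strand: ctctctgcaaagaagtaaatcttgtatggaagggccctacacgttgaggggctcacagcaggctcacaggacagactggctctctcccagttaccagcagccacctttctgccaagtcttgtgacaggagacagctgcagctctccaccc

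The libraries held 14259535 to 22037703 counts, of which 8950847 to 21976631 remained after genes of the mitochondrial chromosome, rRNA and tRNA were left out, and levels are given in cpm, counts scaled to the same total of that remainder in every library. A single count was then worth 0.0455 to 0.112 cpm. In TRAP against WCH the markers followed the labels, with 4 of 4 layer 5 markers higher in RBP4-TRAP and 5 of 5 GABAergic markers higher in VGAT-TRAP, where 5 of 5 striatal markers were also higher. In ST neither glial markers nor those of the labelled neurons followed the labels. The summed GABAergic level had a median of 408 cpm in VGAT ST, 440.5 in VGAT SNF and 4235 in VGAT TRAP, and the layer 5 sums of RBP4 ST (627 to 1180 cpm) overlapped those of VGAT ST (525 to 799.8 cpm). The summed oligodendrocyte level was 31259 to 53924 cpm in the 10 ST libraries, 11796 to 18415 in SNF, 5851 to 9363 in WCH and 345 to 5270 in TRAP. RBP4 TRAP replicate 5 stood apart with 5270 cpm of oligodendrocyte markers, against 345 to 868 in the other 4, and with 437 cpm of GABAergic markers against 92.5 to 139. RBP4 ST replicate 4 held 49.9 cpm of Slc32a1, against 10.9 to 19.7 in the other RBP4 ST libraries. Its summed GABAergic markers (330 cpm) did not stand apart from those of replicates 1 and 5 (322 and 306 cpm). RBP4 ST replicate 2 held 323 cpm of endothelial markers, against 4.65 to 65.0 in the other 4. SNF replicate 3 stood apart in both lines, with 40.2% and 41.9% of all counts from the mitochondrial chromosome (11.2 to 19.4% in the other SNF libraries), and ST replicate 3 held 15.8% and 19.0% (2.71 to 7.08% in the others). Counts without the replicate concerned are given beside the results they move, and the ranges stand with the alternatives.

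In whole homogenate the genes spanned a wide range of levels. Per kb of gene length, Ndufa4, a subunit first assigned to complex I and found with complex IV, had the highest mean WCH level (2121 cpm per kb). It was followed by Cox6b1 of complex IV (1344 cpm per kb), Uqcr10 of complex III (925 cpm per kb), Atp5mpl of ATP synthase (821 cpm per kb) and Cox7a2 of complex IV (742 cpm per kb), all small proteins. The lowest were Ndufa4l2 (0.460 cpm per kb), Atp5g2 (0.664 cpm per kb), Cox4i2 (0.944 cpm per kb) and Cox7b2 (1.51 cpm per kb), of which all but Atp5g2, a gene for the Fo c subunit, are alternative isoforms. The reads are biased to the 3′ end, so that levels per kb can understate long genes, and the genes had a median length of 1243 bases against 3824 bases for expressed coding genes.

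The 95 genes together took, on average, a larger share of the counts in TRAP than in any other fraction. In RBP4-TRAP mice they held 2.29% ± 0.518 (SD, n = 5) of the kept counts in WCH, 3.78% ± 0.455 in TRAP, 2.44% ± 0.587 in SNF and 2.31% ± 0.575 in ST. In VGAT-TRAP mice the shares were 2.25% ± 0.265 in WCH, 5.29% ± 0.478 in TRAP, 2.26% ± 0.528 in SNF and 2.51% ± 0.438 in ST. The lowest TRAP share was 3.36% in RBP4 and 4.80% in VGAT, above the highest WCH share of each line (3.10% and 2.70%), while the highest RBP4 SNF library (3.41%) overlapped RBP4 TRAP. Of the 13 protein genes on mitochondrial DNA, 5 (mt-Co2, mt-Co3, mt-Atp6, mt-Atp8 and mt-Nd4l) had 0 to 4 counts in every library, so that their ratio to the nuclear genes rests on the other 8, of complexes I, III and IV. The ratio went the other way, with a median of 0.0470 counts in those genes per count in the 95 genes in RBP4 TRAP and 0.0149 in VGAT TRAP, against 2.18 and 1.66 in WCH, 5.17 and 7.04 in SNF, and 1.25 and 1.05 in ST.

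**Figure D1:**
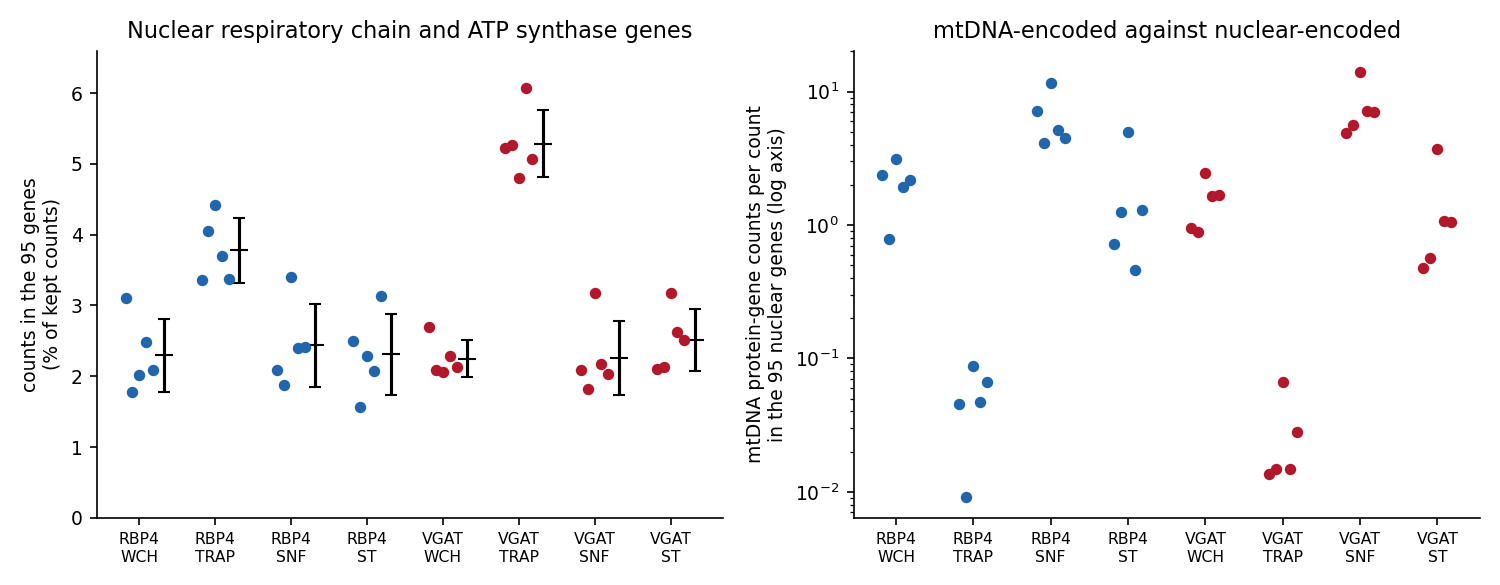
Left, percent of kept counts in the 95 nuclear respiratory chain and ATP synthase genes in each of the 40 libraries (points) with the mean ± SD of each group of 5. Right, counts in mitochondrially encoded protein genes per count in the 95 genes, on a log axis. TRAP shares (3.36 to 6.08%) lie above all others but that of 1 RBP4 SNF library (3.41%), and TRAP ratios are the lowest of both lines.

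Ribosome-bound RNA of the labelled neurons was compared with the whole homogenate (TRAP against WCH) to find genes enriched in each neuron type. Most respiratory chain and ATP synthase genes were called higher in TRAP in both lines, though not in every complex. In RBP4-TRAP, 61 of the 95 were called higher and 2 lower, where 8.37% of the 17043 genes tested were called higher and 31.5% lower, and their median log2 difference was 0.74 against -0.34 over all genes tested. In VGAT-TRAP, 87 were called higher and 0 lower (21.0% and 41.8% of 16990 genes tested), with a median of 1.23 against -0.31. A gene was called where edgeR's quasi-likelihood test gave a Benjamini-Hochberg adjusted p no larger than 0.05 over all genes tested, and log2 differences are given with their standard errors. In these bulk samples a smaller share of cells of a type and less RNA per cell cannot be told apart.

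The accessory subunits of complex I, which surround its catalytic core, made up the largest group, with 24 of 29 higher in RBP4-TRAP (median 0.88) and 29 of 29 in VGAT-TRAP (median 1.41). Ndufa6, an accessory subunit bound to the matrix arm, had 106, 152, 192, 148 and 202 cpm in RBP4 WCH and 337, 428, 481, 372 and 357 cpm in RBP4 TRAP. Every TRAP library was above every WCH library, and the log2 difference was 1.30 ± 0.19 (edgeR adjusted p = 2.17e-05). The core subunits, which carry the flavin and iron-sulfur centres, rose in 5 of 7 cases in RBP4-TRAP (median 0.59) and 7 of 7 in VGAT-TRAP (median 0.93). Ndufv1, which binds the flavin, had 185, 134, 146, 180.3 and 195 cpm in RBP4 WCH and 189.6, 265, 269, 231 and 307 cpm in RBP4 TRAP, where the lowest TRAP value fell within the WCH range (0.59 ± 0.19, edgeR adjusted p = 0.0196). In VGAT-TRAP it differed by 0.96 ± 0.12 (edgeR adjusted p = 1.1e-06) with separate groups. Ndufs1, the largest iron-sulfur subunit, did not pass in RBP4-TRAP (0.02 ± 0.20, edgeR adjusted p = 0.959).

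Assembly factors of complex I, which build the enzyme and are not part of it, were called higher in 4 of 8 cases in RBP4-TRAP and 7 of 8 in VGAT-TRAP. Ndufaf8 had the largest increase of the 95 genes in RBP4-TRAP, with 4.65, 5.66, 6.75, 6.94 and 8.82 cpm in WCH and 14.6, 19.6, 18.3, 17.2 and 13.4 cpm in TRAP. The groups did not overlap (1.34 ± 0.23, edgeR adjusted p = 0.000131).

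Complex II, which also serves the citric acid cycle, had 1 of 4 genes called higher in RBP4-TRAP. Its catalytic flavoprotein Sdha had 598, 584, 632, 569 and 764 cpm in RBP4 WCH and 552, 636, 590.4, 563 and 788 cpm in RBP4 TRAP, and the ranges overlapped almost fully (-0.01 ± 0.19, edgeR adjusted p = 0.978). In VGAT-TRAP the value of Sdha was 0.15 ± 0.15 (edgeR adjusted p = 0.395), while 3 of the 4 complex II genes were called higher there. The gene called higher in RBP4-TRAP was Sdhb, the iron-sulfur subunit, with 367, 293, 312, 356 and 425 cpm in WCH and 532, 663, 683, 588 and 678 cpm in TRAP. Its groups were separate (0.84 ± 0.17, edgeR adjusted p = 0.000607), and in VGAT-TRAP the value was 0.90 ± 0.13 (edgeR adjusted p = 5.23e-06).

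In complex III, 4 of 8 subunits rose in RBP4-TRAP and 8 of 8 in VGAT-TRAP. Uqcr11, a small membrane subunit, had 267, 122, 166, 213 and 152 cpm in RBP4 WCH and 389, 432, 576, 472 and 375 cpm in RBP4 TRAP. The groups were separate, with a log2 difference of 1.28 ± 0.27 (edgeR adjusted p = 0.000649). Uqcrc1, a core protein of the matrix side, had 166, 183, 221, 162 and 354 cpm in RBP4 WCH and 232, 287, 303, 272 and 563 cpm in RBP4 TRAP. Replicate 5 was highest in both, and the difference did not pass (0.61 ± 0.27, edgeR adjusted p = 0.076), while in VGAT-TRAP it was 0.62 ± 0.15 (edgeR adjusted p = 0.00147).

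Of the 11 widely expressed complex IV subunits, 8 rose in RBP4-TRAP (median 0.80) and 11 in VGAT-TRAP (median 1.41). Cox5a, a nuclear subunit that contacts the catalytic core, had 51.3, 47.1, 39.7, 51.7 and 33.8 cpm in VGAT WCH and 125, 132, 118, 179 and 108 cpm in VGAT TRAP. The groups were separate (1.57 ± 0.14, edgeR adjusted p = 1.38e-08), as they were in RBP4-TRAP (0.98 ± 0.23, edgeR adjusted p = 0.00165). Cox4i1, the regulatory subunit 4 of most tissues, missed the threshold in RBP4-TRAP (0.59 ± 0.24, edgeR adjusted p = 0.0556) and passed in VGAT-TRAP (0.96 ± 0.18, edgeR adjusted p = 7.62e-05).

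In ATP synthase, 4 of 5 F1 and 9 of 11 Fo or stalk subunits rose in RBP4-TRAP, and 5 of 5 and 10 of 11 in VGAT-TRAP. Atp5g3, the most abundant of 3 genes for the identical mature c subunit of the Fo ring, had 503, 439.7, 367, 459 and 330.1 cpm in VGAT WCH and 1562, 1557, 1363, 1863 and 1212 cpm in VGAT TRAP. The separate groups differed by 1.85 ± 0.18 (edgeR adjusted p = 3.95e-08), and Atp5g2, another c subunit gene, did not pass in either line (-0.01 and -0.54).

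The alternative isoforms did not follow the rest. In RBP4-TRAP 0 of 8 were higher and 2 were lower (median -0.70), namely Cox8b (-2.83 ± 0.81, edgeR adjusted p = 0.00831) and Ndufa4l2 (-2.62 ± 0.82, edgeR adjusted p = 0.0142), a paralog of Ndufa4 known for its induction by low oxygen. Both rest on few counts. Cox8b had 46 in all of RBP4 WCH and 7 in RBP4 TRAP. Ndufa4l2 had 9, 9, 5, 4 and 11 in the RBP4 WCH libraries and 0, 1, 3, 2 and 1 in RBP4 TRAP. In VGAT-TRAP 3 of 8 were higher. The largest increase of all was that of Cox6a2, the heart and skeletal muscle form of complex IV subunit 6a, with 15.5, 15.6, 13.0, 18.4 and 17.0 cpm in VGAT WCH and 146, 130.2, 141, 209.6 and 149 cpm in VGAT TRAP. The groups were far apart, with a log2 difference of 3.29 ± 0.29 (edgeR adjusted p = 1.22e-08). Cox8b, its counterpart for subunit 8, had 0.924, 0.856, 1.18, 1.04 and 1.14 cpm in VGAT WCH and 4.34, 4.52, 3.25, 5.28 and 4.71 cpm in VGAT TRAP (2.10 ± 0.41, edgeR adjusted p = 0.000167).

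Without replicate 5 of the RBP4 line, which includes the TRAP library with glial and GABAergic markers, 62 of the 95 genes were higher in TRAP against WCH. Without replicate 3 the count was 39 and without replicate 2 it was 40. Of the 61 genes higher in RBP4 TRAP, 38 had groups that did not overlap and 49 were higher in all 5 pools, and of the 87 in VGAT TRAP these numbers were 85 and 87. Such numbers were not taken for all genes called, so that they do not set the 95 apart.

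**Figure D2:**
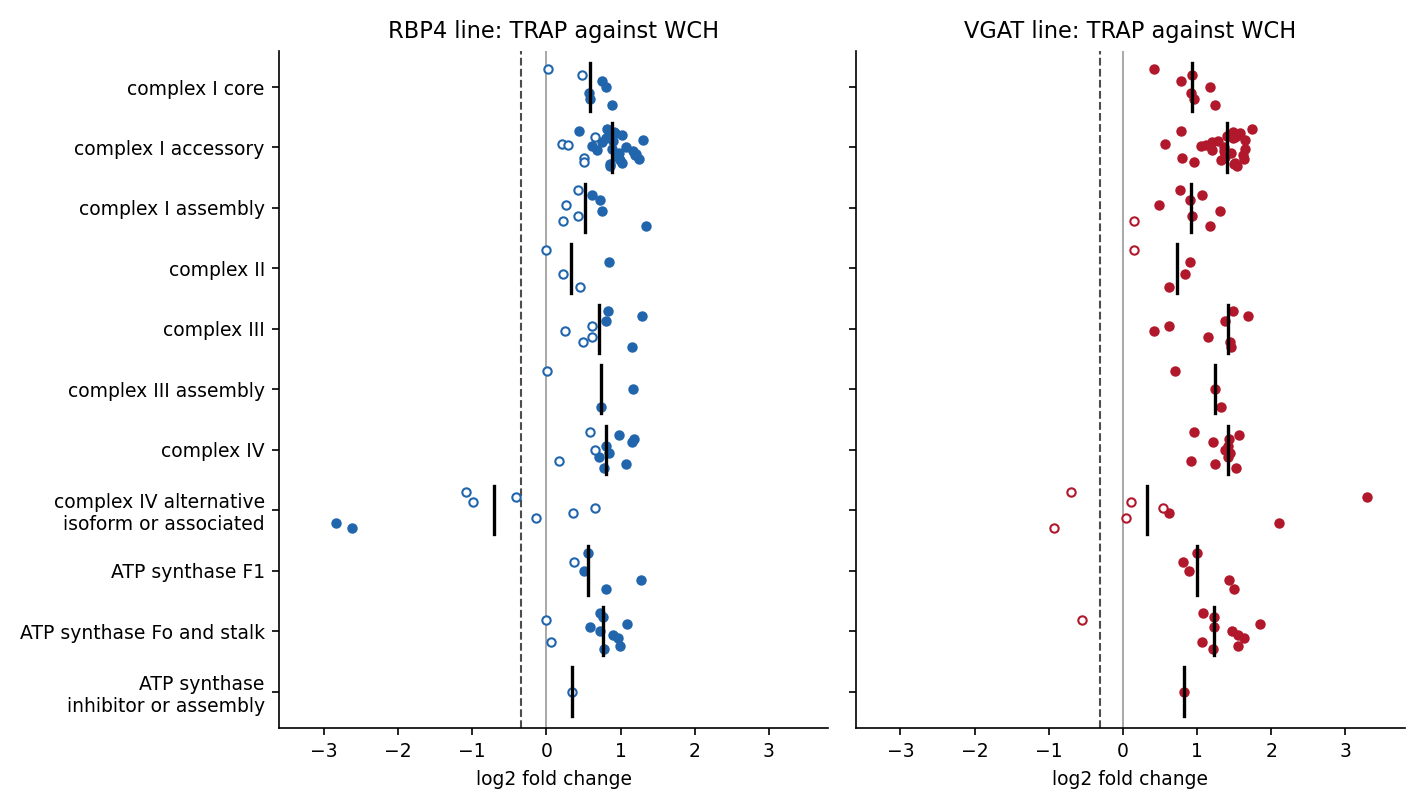
Log2 difference of TRAP against WCH (x axis) for each of the 95 genes by complex, in RBP4-TRAP and VGAT-TRAP mice. Filled points have an edgeR adjusted p of at most 0.05, open points do not, black bars are group medians, the dashed line is the median of all genes tested (-0.34 and -0.31) and the grey line is 0. Nearly all groups lie to the right of the dashed line, while the alternative complex IV isoforms spread from -2.83 to 3.29.

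Short transcripts in general were relatively higher in TRAP. The shortest of 5 length classes of coding genes (up to 2128 bases), which held 69 of the 95 genes, had a median log2 difference of 0.21 in RBP4-TRAP and 0.33 in VGAT-TRAP, and the longest class had -0.76 in both. The medians of the 95 genes (0.74 and 1.23) lie above those of that class, and the part of transcript length in them was not tested. Genes for mitochondrial ribosomal proteins, which translate the mitochondrially encoded subunits, were also higher (52 of 75 in RBP4-TRAP with a median of 0.67, and 71 of 75 in VGAT-TRAP with 0.85). Cytoplasmic ribosomal protein genes were higher in 9 of 83 and 53 of 84 cases. Citric acid cycle and pyruvate dehydrogenase genes were higher in 2 of 17 and 12 of 17 cases, and 12 regulators of mitochondrial biogenesis were called higher in 0 and 3 cases and lower in 3 in each line.

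Whether the RNAs lie near synapses was addressed by SNF against WCH. Of the 11 widely expressed complex IV subunits 4 were called higher in each line, while 6 and 8 of the 8 assembly factors of complex I and 2 and 4 of the 5 F1 subunits of ATP synthase were called lower. In RBP4-TRAP 10 of the 95 were called higher and 14 lower (13.4% and 36.1% of all genes tested), and in VGAT-TRAP 10 were higher and 32 lower (19.3% and 45.2%). The median of the 95 genes was -0.12 and -0.18, above that of all genes tested (-0.50 and -0.52), and turned to 0.25 and 0.18 with TMM factors and to 0.35 and 0.27 with DESeq2 size factors. With TMM factors the counts were 19 higher and 3 lower in RBP4-TRAP and 23 higher and 7 lower in VGAT-TRAP, and with DESeq2 they were 28 and 3, and 30 and 3. The shares of all genes called under these scalings are not set beside them, so that a shift common to all genes is not separated. Without replicate 3, whose SNF libraries held the most mitochondrial counts, 5 were higher and 15 lower in RBP4-TRAP and 9 higher and 50 lower in VGAT-TRAP. In each line 5 of 5 astrocyte and 4 of 4 microglia markers were also higher in SNF, as were 4 of 5 oligodendrocyte markers in RBP4-TRAP and 5 of 5 in VGAT-TRAP, and their part in these values was not tested.

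Of the 11 widely expressed complex IV subunits, 4 rose and 0 fell in RBP4-TRAP (median 0.35), and 4 rose and 1 fell in VGAT-TRAP (median 0.32, which became -0.01 when no genes were left out). The largest rise was that of Cox6a1, the form of subunit 6a found in most tissues, with 289.9, 252, 475, 236 and 469 cpm in RBP4 WCH and 813, 621, 1555, 995 and 804 cpm in RBP4 SNF. The groups did not overlap (1.48 ± 0.26, edgeR adjusted p = 0.000202), nor did they in VGAT-TRAP, with 184, 343, 436, 396 and 369.9 cpm in WCH and 679.5, 711, 1345, 541 and 687 cpm in SNF (1.20 ± 0.28, edgeR adjusted p = 0.00079). Replicate 3 was the highest SNF library in both lines.

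Cox8a rose by 1.21 ± 0.21 in RBP4-TRAP (edgeR adjusted p = 0.000183) and by 0.96 ± 0.25 in VGAT-TRAP (edgeR adjusted p = 0.00226). Cox4i1 was called higher in both lines (0.77 and 0.72). Accessory subunits of complex I were split, with 4 higher and 2 lower in RBP4-TRAP and 5 and 5 in VGAT-TRAP. Ndufb9, Ndufb11, Ndufa13 and Ndufc2 were called higher in both lines (0.87, 0.64, 0.61 and 0.58 in RBP4-TRAP, and 0.74, 0.60, 0.45 and 0.64 in VGAT-TRAP).

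Assembly factors of complex I fell in 6 of 8 cases in RBP4-TRAP (median -0.66) and 8 of 8 in VGAT-TRAP (median -0.61), and 0 were called higher under any of the 4 scalings, with 2 to 7 lower in RBP4-TRAP and 2 to 8 in VGAT-TRAP. Ndufaf4, a factor needed early in the assembly of complex I, had 71.3, 63.1, 58.0, 61.7 and 59.3 cpm in VGAT WCH and 29.7, 28.1, 30.8, 27.6 and 28.9 cpm in VGAT SNF. The 5 SNF values lay within a narrow range far below WCH (-1.11 ± 0.10, edgeR adjusted p = 6.21e-08), and in RBP4-TRAP the difference was -1.19 ± 0.22 (edgeR adjusted p = 0.000302). Ndufaf5, which modifies a core subunit, had -0.87 ± 0.12 in VGAT-TRAP (edgeR adjusted p = 2.06e-06) and -0.85 ± 0.17 in RBP4-TRAP (edgeR adjusted p = 0.000495).

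Outside complex I, Uqcrfs1, the Rieske iron-sulfur protein of complex III, fell by 1.02 on the log2 scale in VGAT-TRAP (SE 0.20, edgeR adjusted p = 0.000181) and by 0.97 in RBP4-TRAP (SE 0.26, edgeR adjusted p = 0.00388). Atp5s, known as coupling factor B of ATP synthase, fell by 1.06 in RBP4-TRAP (SE 0.20, edgeR adjusted p = 0.000332) and by 0.75 in VGAT-TRAP (SE 0.15, edgeR adjusted p = 0.000195). F1 subunits of ATP synthase were lower in 2 of 5 cases in RBP4-TRAP and 4 of 5 in VGAT-TRAP, and 0 of 5 with TMM factors or DESeq2. Mitochondrial ribosomal protein genes were lower in 49 and 64 of 75 cases and higher in 0, with medians of -0.62 and -0.73.

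**Figure D3:**
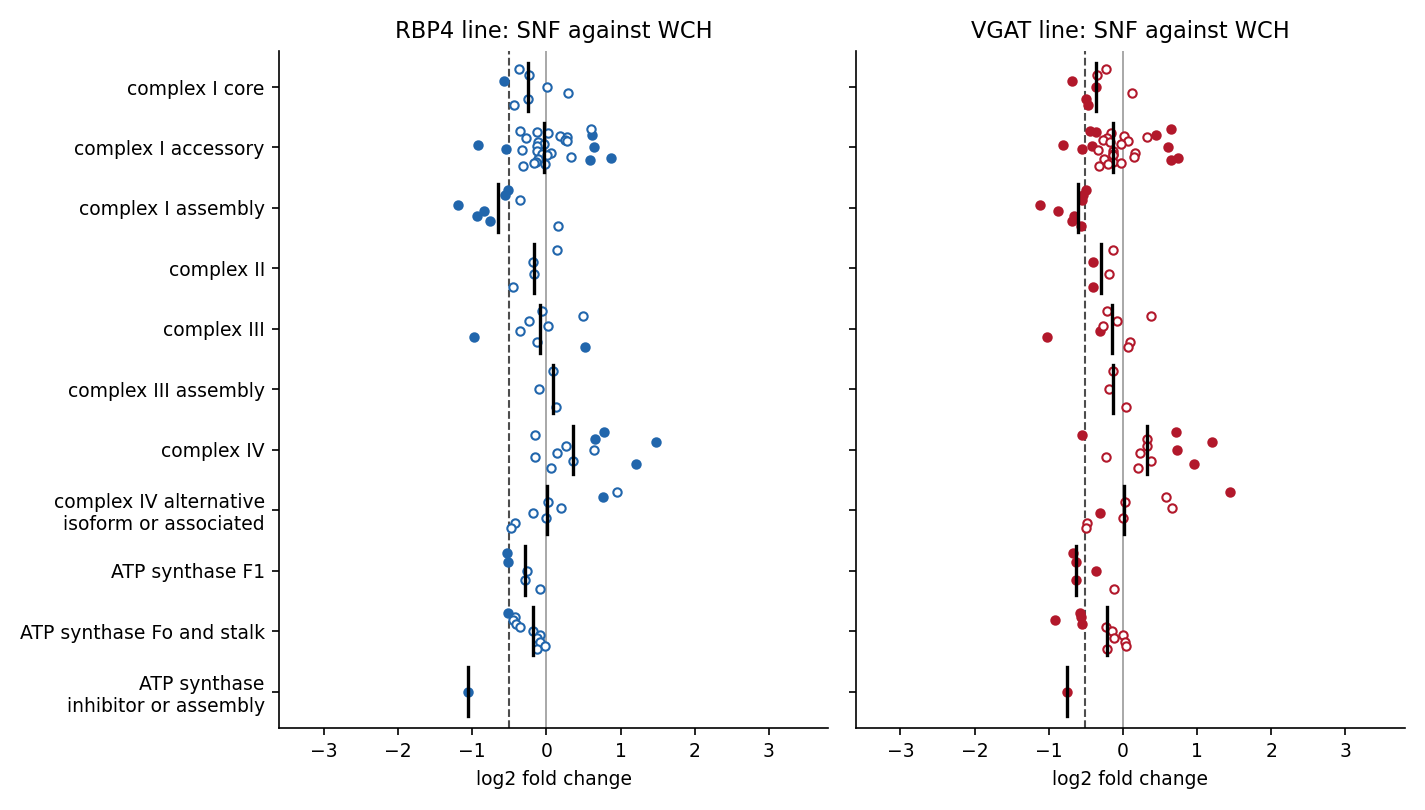
Log2 difference of SNF against WCH (x axis) for each of the 95 genes by complex in both lines, drawn as for TRAP against WCH, with the dashed line at the median of all genes tested (-0.50 and -0.52). Complex IV sits highest (medians 0.35 and 0.32) and complex I assembly factors lowest among groups of more than 1 gene in RBP4-TRAP (median -0.66).

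Capture of tagged ribosomes from the synaptoneurosomes was compared with the synaptoneurosomes themselves (ST against SNF), to find RNA bound to ribosomes of the labelled neurons there. The markers of the labelled neurons did not set ST apart from SNF, with 0 of 4 layer 5 markers called in RBP4-TRAP and 2 of 5 GABAergic markers called higher in VGAT-TRAP, where their sums overlapped (249 to 657 cpm in SNF and 258 to 706 cpm in ST). The summed oligodendrocyte level went from a median of 14768 to 33011 cpm in RBP4-TRAP and from 15466 to 42659 cpm in VGAT-TRAP, and its part in the members' values was not tested. In RBP4-TRAP none of the 95 genes was called higher and 1 lower, where 5.64% of all genes tested were higher and 5.46% lower. Of the 95, 11 had an unadjusted p under 0.05 in edgeR, while DESeq2 called 1 higher and 3 lower. With no genes left out 7 were higher and 0 lower, where the median was 0.18 for the 95 genes and 0.17 over all genes tested. The 1 gene called lower was Cox6a2, with 23.8, 26.9, 32.5, 23.7 and 18.4 cpm in SNF and 17.3, 13.7, 14.9, 8.45 and 15.5 cpm in ST, which did not overlap (-0.84 ± 0.20, edgeR adjusted p = 0.00767). Without replicate 4, whose ST library is the lowest and held the most Slc32a1, its edgeR adjusted p was 0.0597.

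In VGAT-TRAP 12 were called higher and 1 lower (16.3% and 11.2% of all genes tested), and 5 higher and 3 lower with DESeq2. With no genes left out 44 were higher and 0 lower, where the median was 0.39 for the 95 genes and 0.32 over all genes tested. The shares of all genes called under these alternatives are not set beside the counts. The 12 included 3 of 5 F1 subunits and 4 of 7 core subunits of complex I. Atp5b, the catalytic beta subunit of F1, had 898, 743, 916, 741 and 738 cpm in VGAT SNF and 1537, 1411, 1270, 1239 and 1052 cpm in VGAT ST. All ST values were above all SNF values (0.69 ± 0.14, edgeR adjusted p = 0.000631), and Atp5a1, the alpha subunit that sits beside it, differed by 0.59 ± 0.13 (edgeR adjusted p = 0.00151). Ndufaf4 was the gene called lower (-0.32 ± 0.10, edgeR adjusted p = 0.0209). The count of 12 became 5 without replicate 1, 3 without replicate 2 and 5 without replicate 5.

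ST against TRAP set the captured RNA of synaptoneurosomes beside that of the whole cells. In RBP4-TRAP 69 of the 95 genes were lower and 3 higher (29.1% and 26.0% of all genes tested), with a median of -0.95 against -0.07 over all genes. In VGAT-TRAP 83 were lower and 2 higher (34.0% and 37.5%), with a median of -1.23 against 0.08. These comparisons share their TRAP libraries with TRAP against WCH. Without RBP4 ST replicate 4 alone, 64 were lower in RBP4-TRAP, and without replicate 5 of that line, 72.

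All 8 complex I assembly factors were lower in both lines (medians -1.22 and -1.47), as were 24 and 28 of the 29 accessory subunits (medians -1.06 and -1.38). Ndufb2, a small accessory subunit, had 78.0, 108, 110.5, 85.9 and 53.3 cpm in RBP4 TRAP and 27.6, 20.7, 23.8, 29.0 and 35.3 cpm in RBP4 ST. The groups were separate (-1.68 ± 0.22, edgeR adjusted p = 1.71e-06), and in VGAT-TRAP the difference was -2.05 ± 0.15 (edgeR adjusted p = 1.41e-10). Ndufaf8 and Ndufaf4 followed in RBP4-TRAP (-1.66 ± 0.24 and -1.58 ± 0.22, edgeR adjusted p = 4.63e-06 and 4.04e-06). In VGAT-TRAP the largest falls among genes with separate groups were those of Cox8b (-2.44 ± 0.43, edgeR adjusted p = 2.92e-05), Cox6a2 (-2.22 ± 0.28, edgeR adjusted p = 3.58e-07) and Atp5g3 (-2.19 ± 0.18, edgeR adjusted p = 1.03e-09). Complex IV was lower in 6 of 11 cases in RBP4-TRAP and 8 of 11 in VGAT-TRAP, and Cox4i1 (0.08 and 0.01), Cox6a1 (-0.33 and -0.29) and Cox8a (-0.48 and -0.56) did not pass in either line.

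The few genes that were higher in ST are low in TRAP. Cox4i2, the alternative subunit 4 known for its expression in lung, had 0.574, 0.0594, 0.702, 0.634 and 0.146 cpm in VGAT TRAP and 3.43, 1.98, 3.73, 0.967 and 1.16 cpm in VGAT ST (2.41 ± 0.50, edgeR adjusted p = 0.000203). Ndufa4l2 was also higher in both lines (3.06 and 2.02), on few counts and not in every replicate. In RBP4 it had 0, 1, 3, 2 and 1 counts in TRAP and 3, 48, 3, 4 and 6 in ST. Most of these came from ST replicate 2, the library with endothelial markers. In VGAT it had 1, 1, 7, 5 and 4 counts in TRAP and 36, 23, 3, 3 and 5 in ST, with no rise in replicates 3 and 4. In the same comparison 5 of 5 astrocyte, 5 of 5 oligodendrocyte, 4 of 4 microglia and 4 of 4 endothelial markers were higher in ST in each line, with median astrocyte differences of 3.33 and 3.70, and their part in the result was not tested. Long coding genes were also higher in ST (median of the longest class 0.37 and 0.56, of the shortest -0.54 and -0.56).

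**Figure D4:**
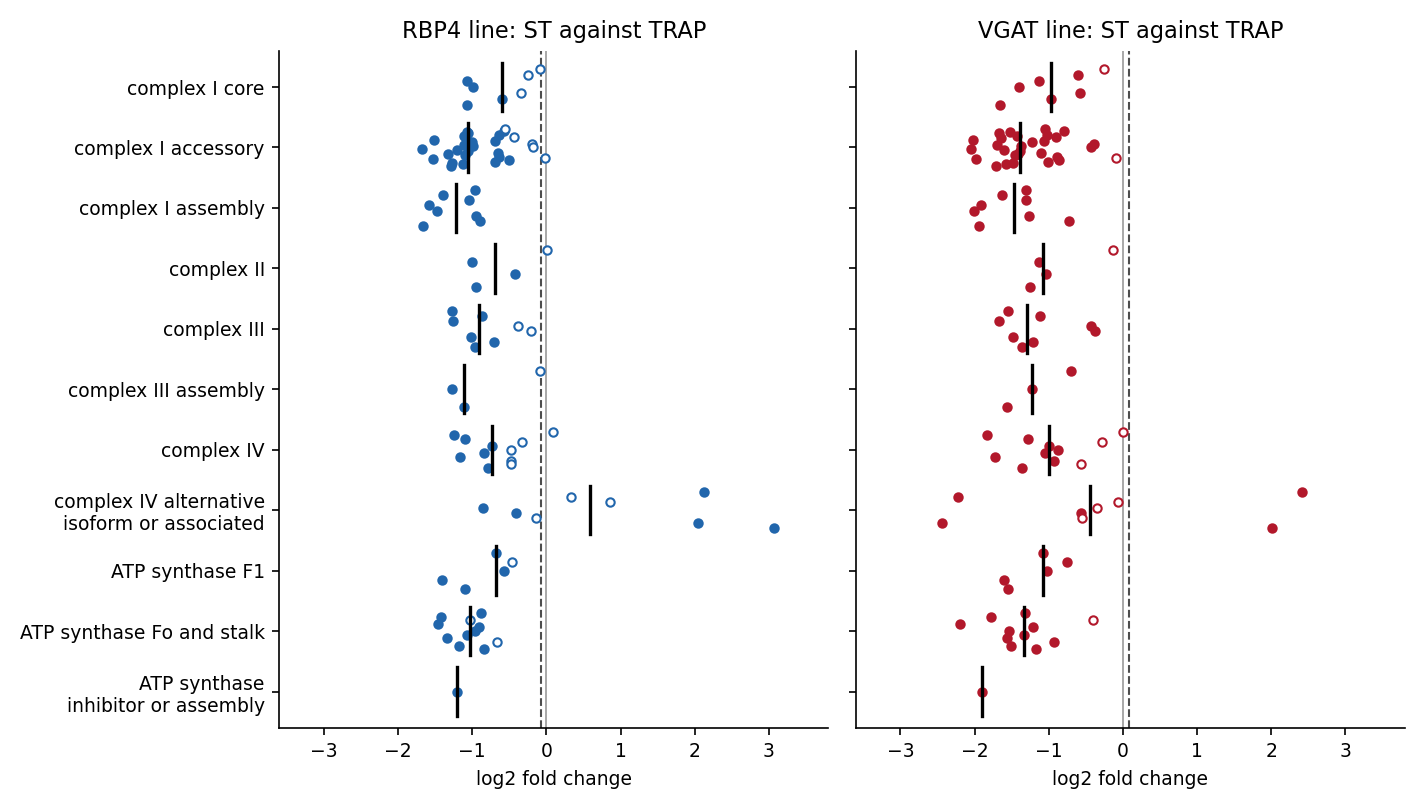
Log2 difference of ST against TRAP (x axis) for each of the 95 genes by complex in both lines, drawn as for TRAP against WCH, with the dashed line at the median of all genes tested (-0.07 and 0.08). Group medians lie to the left of that line except for the alternative complex IV isoforms in RBP4-TRAP (0.59).

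Genes were also set against the study's definitions of local and somatic candidates, here with an unadjusted p under 0.05 in edgeR in each of 2 comparisons. Local candidates are higher in ST against SNF and in SNF against WCH, and somatic candidates are higher in TRAP against WCH and lower in SNF against WCH, so that the latter pair shares its WCH libraries. None of the 95 genes was a local candidate in RBP4-TRAP, where 0.417% of all genes tested were, and Ndufb11, an accessory subunit of complex I encoded on the X chromosome, was the only such gene in VGAT-TRAP (1.29% of all genes). Its log2 difference was 0.33 ± 0.14 in ST against SNF (edgeR adjusted p = 0.0792) and 0.60 ± 0.14 in SNF against WCH (edgeR adjusted p = 0.000666), and it was not a candidate without replicate 1, 2 or 5 or with TMM factors, nor when both adjusted p had to be 0.05 or less.

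Somatic candidates numbered 10 in RBP4-TRAP (5.94% of all genes tested) and 31 in VGAT-TRAP (13.2%). The 10 were Ndufaf1, Ndufaf2 and Ndufaf5 among assembly factors, Ndufs3, Ndufa10 and Ndufb2 of complex I, Sdhd, Uqcrfs1, and Atp5a1 and Atp5f1 of ATP synthase. All 10 were among the 31 of VGAT-TRAP (100% and 32.3% of each list). The overlap between lines was not counted for all genes tested, so that it does not set these genes apart. Among the 31, Ndufaf5, Ndufs3, Ndufaf3, Atp5a1 and Ndufab1, the mitochondrial acyl carrier protein, had the smallest p-values. Ndufs3, a core subunit of the matrix arm, had 51.2, 43.6, 47.4, 48.5 and 51.0 cpm in RBP4 WCH, 74.0, 77.9, 86.0, 78.7 and 89.3 cpm in TRAP and 27.8, 25.0, 32.3, 35.4 and 42.7 cpm in SNF. The 3 groups did not overlap (0.75 ± 0.16 and -0.57 ± 0.16, edgeR adjusted p = 0.000748 and 0.00549). With an edgeR adjusted p of 0.05 or less in both tests, an alternative added after the data were seen, the counts were 6 (Atp5a1, Atp5f1, Ndufaf2, Ndufaf5, Ndufb2 and Ndufs3) and 30. With DESeq2 the counts were 5 and 4, with TMM factors 7 in VGAT-TRAP and with no genes left out 27 and 59, and the RBP4-TRAP count was 3 without replicate 1, 5 without replicate 2 and 6 without replicate 4. The shares of all genes under these alternatives are not set beside the counts.

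The lines were then compared within fractions. In WCH none of the 95 genes was called in either direction by edgeR (0.00592% of 16898 genes in each), 2 had an unadjusted p under 0.05, and DESeq2 called none. In TRAP 39 were lower in RBP4 than in VGAT and 0 higher (15.1% and 12.9% of all genes tested), with a median of -0.48 against -0.01, and 33 of the 39 had groups that did not overlap. They included 15 of 29 accessory subunits of complex I, 5 of 11 Fo or stalk subunits and 3 of 8 subunits of complex III. Without RBP4 replicate 5 the count was 33, and without VGAT replicate 4 it was 22. Overlap between groups was not counted for all genes called.

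Uqcrh, the acidic hinge subunit of complex III, had 513, 579, 573, 508 and 337 cpm in RBP4 TRAP and 935, 940.4, 933, 1129 and 957 cpm in VGAT TRAP, with no overlap (-0.96 ± 0.24, edgeR adjusted p = 0.00301). Sdhc, a membrane anchor of complex II, was lower by 0.70 (SE 0.14, edgeR adjusted p = 0.000267) and Uqcc1, an assembly factor of complex III, by 0.75 (SE 0.12, edgeR adjusted p = 6.94e-06). For Uqcc1 the TRAP values were 31.3, 30.9, 31.4, 30.0 and 32.7 cpm in RBP4 and 50.4, 53.7, 44.4, 60.9 and 54.5 cpm in VGAT. Its RBP4 values were nearly the same in every library and did not leave the range of RBP4 WCH.

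The muscle isoforms of complex IV differed most. Cox6a2 had 8.40, 10.1, 13.9, 11.6 and 11.4 cpm in RBP4 TRAP, against the 130.2 to 209.6 cpm of VGAT TRAP, and the log2 difference was -3.81 ± 0.29 (edgeR adjusted p = 1.26e-11). Its gene overlaps Itgad, an integrin gene that had 8 to 17 counts in VGAT TRAP beside 2190 to 3967 counts of Cox6a2. Cox8b had 0.358, 0, 0, 0 and 0.0560 cpm in RBP4 TRAP, where the 3 libraries without a count allow up to 0.137 to 0.156 cpm (3 counts each, counting error only). Against the 3.25 to 5.28 cpm of VGAT TRAP the log2 difference was -5.75 ± 0.67 (edgeR adjusted p = 6.37e-08), a value that rests on 7 counts in RBP4 TRAP against 392 in VGAT TRAP.

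The widely expressed partners of these isoforms did not pass between the same libraries. Cox6a1 had 652, 672, 1031, 611 and 851 cpm in RBP4 TRAP and 726, 470.2, 960.0, 1074 and 799 cpm in VGAT TRAP (-0.08 ± 0.26, edgeR adjusted p = 0.856), and Cox8a differed by -0.15 ± 0.20 (edgeR adjusted p = 0.624). Ratios of isoforms were taken within each library from counts per kb, with 0.5 added to each count. The log2 ratio of Cox6a2 to Cox6a1 in TRAP was -6.00 ± 0.226 (SD, n = 5) in RBP4 and -2.25 ± 0.327 in VGAT. That of Cox8b to Cox8a was -12.95 ± 1.90 and -6.77 ± 0.379. Cox8b had 0 counts in 3 RBP4 TRAP libraries, so that the RBP4 mean and SD of this ratio depend on the 0.5 added. In an exact two-sided permutation test the difference of each ratio between the lines reached p = 0.00794, the smallest that 5 against 5 allows. Over the 32 ratios compared (8 isoform pairs in 4 fractions) the adjusted p was 0.0847, so that none passed 0.05. The ratio of Atp5g1 to Atp5g3 in TRAP reached the same p and adjusted p, at a log2 difference of only 0.33 (RBP4 less VGAT). This p thus does not measure the size of a difference.

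Parvalbumin, striatal and other GABAergic markers were also higher in VGAT TRAP than in RBP4 TRAP. The summed parvalbumin cell markers held 1956 to 2776 cpm in VGAT TRAP and 72.5 to 226 cpm in RBP4 TRAP. In VGAT ST, Cox6a2 had 13.9, 14.2, 54.5, 38.3 and 46.7 cpm and Pvalb itself 52.6, 51.5, 187, 164 and 180 cpm in the same libraries, so that replicates 1 and 2 were low for both. The summed GABAergic markers (401, 408, 258, 706 and 595 cpm) and striatal markers (943, 1060, 611, 1369 and 2520 cpm) of the same libraries were lowest in replicate 3, where Cox6a2 was highest. The summed parvalbumin cell markers, Pvalb included, were 349, 396, 458, 534 and 523 cpm in these libraries. Without Pvalb, that sum was likewise lowest in replicate 3. Which GABAergic cells the isoform RNA came from was not tested.

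**Figure D5:**
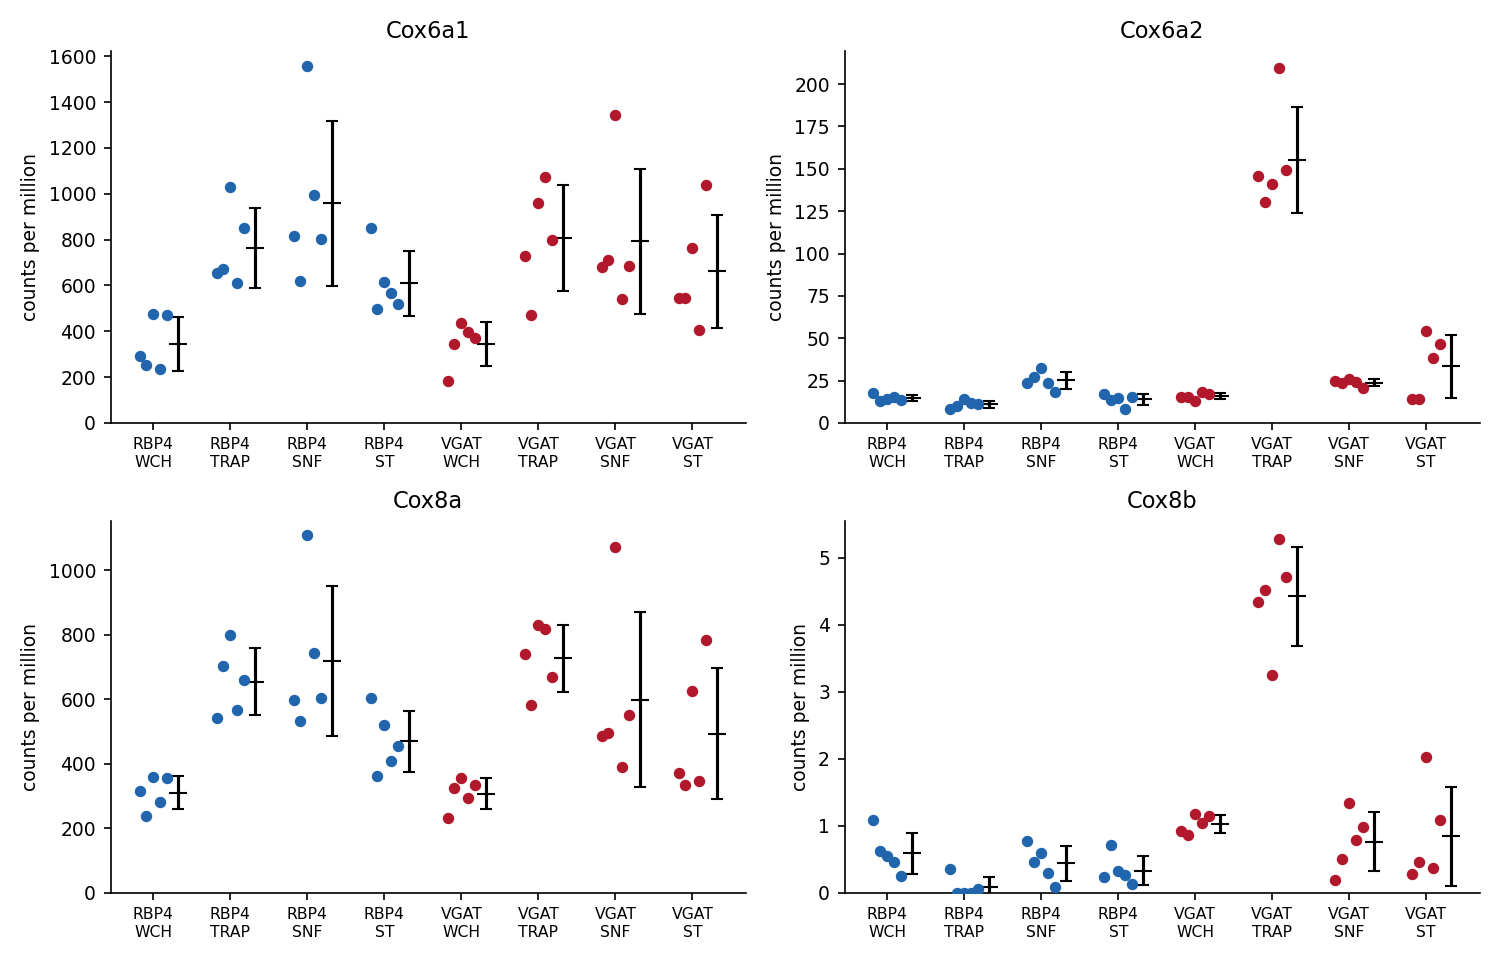
Levels (cpm, linear axes from 0, a different scale in each panel) of Cox6a1, Cox6a2, Cox8a and Cox8b in the 40 libraries by line and fraction, with points for libraries and the mean ± SD of each group of 5. Cox6a2 and Cox8b stand high in VGAT TRAP (130.2 to 209.6 cpm and 3.25 to 5.28 cpm) and are lower in each library of every other group.

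Between the ST fractions of the lines 1 gene was lower in RBP4 and 0 higher (0.266% and 0.0592% of all genes tested). This was Cox6a2 (-1.26 ± 0.27, edgeR adjusted p = 0.0265), whose groups overlapped in VGAT replicates 1 and 2, and 4 of the 95 had an unadjusted p under 0.05. It lost its call with TMM factors and without replicate 3, 4 or 5 of either line. The interaction of line with ST against TRAP asks whether that difference is unequal in the lines, and it was called higher in RBP4 for 4 genes and lower for 0 (5.02% and 5.79% of all genes tested), with a median of 0.35 against -0.04. The 4 were Cox8b (4.49 ± 0.90, edgeR adjusted p = 0.000797), Cox6a2 (2.55 ± 0.38, edgeR adjusted p = 1.62e-05), Uqcc1 (0.61 ± 0.16, edgeR adjusted p = 0.0129) and Sdhc (0.61 ± 0.20, edgeR adjusted p = 0.0449). Each of them was lower in ST than in TRAP in VGAT-TRAP (-2.44, -2.22, -0.70 and -1.03), and in RBP4-TRAP the values were 2.04, 0.34, -0.09 and -0.42.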

How the data were processed

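RNA was measured by poly-A-primed RNA-seq (single 50-base reads) in 40 libraries, 5 in each of 8 groups of line and fraction as the labels give them. The authors aligned reads with STAR 2.0.4b and counted unambiguous reads per gene with featureCounts 1.4.5, and the deposited count of each gene and library is a raw whole number. The deposited CPM values are the authors' counts scaled to the total of each whole library, and the deposited RPKM values divide them by gene length; both served only to check the counts (largest differences 4.07e-10 and 2.76e-10). Positions and gene types came from GENCODE M21 (GRCm38). Strand use in counting is not given in the sources used here, and 21 of the 95 genes overlap another gene. Intervals and limits for a count of 0 cover counting error only.

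Genes of the mitochondrial chromosome, rRNA and tRNA (390) were left out, and the remaining total was the library size with no further factor. Comparisons used edgeR 4.0.16 (glmQLFit and glmQLFTest, R 4.3.3) on the group alone, for genes that reached 0.5 cpm in 3 or more libraries. Alternatives were TMM factors, DESeq2 1.42.0, edgeR's likelihood ratio test, no genes left out, no low-count filter, a replicate block and leaving out each replicate. On simulated counts the test recovered 177 of 200 changes of 2-fold with 11 false calls among 16482 genes for RBP4 TRAP against WCH. These counts had the same spread setting for every gene, and no other gene was changed. The run therefore does not show how the test performs under the broad shifts between real fractions. The 4 samples of a number come from 1 pool, by the methods, and mean correlations of their deviations were -0.041 to 0.480 within lines. Between lines equal numbers pair no pools. Even so, mean correlations between lines at equal numbers were 0.240 in WCH, 0.243 in SNF, 0.177 in TRAP and 0.059 in ST. At different numbers they were -0.057, -0.042, -0.038 and -0.013, and what equal numbers share was not tested. Among replicates at most 1.34% of genes had identical counts.

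The genes, lists and tests were chosen with earlier results of these data known. Genes named were 10 reference subunits, the 3 genes in each direction with the largest called change, a mean of at least 1 cpm and no overlap between groups, isoform pairs, candidates where 10 or fewer (otherwise the 5 with the smallest p), and genes called in the interaction. Others (extremes of level, Ndufa13, Ndufc2, genes with promoter motifs) were named after their values were seen.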

Additional observations from a re-analysis of the deposited data

Results flagged for a closer look

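Among 96 groups of 5 values for the reference subunits, isoforms and the share of counts, 9 had a highest or lowest sample whose gap to its neighbour exceeded 0.71 of the whole range, and chance gives this in about 1 of 20 groups. RBP4 TRAP replicate 5, the library with glial and GABAergic markers, was the highest for Ndufs1 (343 cpm) and for Uqcrc1 (563 cpm). VGAT SNF replicate 3 was the highest of its group for Uqcrc1 (226 cpm), for Atp5g3 (393 cpm) and for the share of counts in the 95 genes (3.17%). The others were Ndufs1 in VGAT WCH replicate 1 (234 cpm), Sdha in VGAT ST replicate 4 (774 cpm), Uqcrfs1 in VGAT SNF replicate 1 (107 cpm) and Cox6a2 in VGAT TRAP replicate 4 (209.6 cpm), each the highest of its group.

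The interaction of line with ST against TRAP was called for Cox8b (4.49), Cox6a2 (2.55), Uqcc1 (0.61) and Sdhc (0.61), each as a log2 difference of the RBP4 value less the VGAT value in edgeR. Cox8b and Cox6a2 passed in every alternative run. Uqcc1 missed the threshold without the filter on low counts (edgeR adjusted p = 0.0633), and Sdhc missed it in 11 of 17 alternatives.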

How the results depend on the processing

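Counts of the 95 genes called depended most on the scaling of SNF libraries, and why was not tested. The counts below stand without the share of all genes called in each setting, so that a common shift is not separated. RBP4 SNF against WCH had 19 higher and 3 lower with TMM factors, 28 and 3 with DESeq2, and 4 and 28 with no genes left out. VGAT SNF against WCH had 23 and 7, 30 and 3, and 58 lower with no genes left out. RBP4 ST against SNF had 1 higher and 3 lower with DESeq2, 7 and 0 with no genes left out, and 3 lower with the likelihood ratio test. VGAT ST against SNF had 5 higher with TMM factors, 5 and 3 with DESeq2, 44 and 0 with no genes left out, and 0 lower without the filter. Cox6a2 between ST fractions was not called with TMM factors (0 lower), and the interaction had 2 without the filter. RBP4 somatic candidates were 5 with DESeq2 and 27 with no genes left out, and VGAT ones 7 (TMM), 4 (DESeq2) and 59 (no genes left out). With an adjusted p in both tests, added after the data were seen, RBP4 had 6 somatic and VGAT 0 local candidates. Local candidates were 1 in RBP4 with no genes left out, and in VGAT 0 (TMM), 0 (DESeq2) and 2 (no genes left out). Of single genes, Sdhb in VGAT SNF against WCH turned from -0.40 to 0.051 with DESeq2.

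Leaving out each replicate gave these ranges of genes higher and lower: RBP4 TRAP against WCH 39 to 63 and 1 to 3, RBP4 SNF against WCH 5 to 11 and 6 to 16 (5 higher without replicate 3, 6 lower without replicate 1 and 7 without replicate 4), RBP4 ST against SNF 0 and 0 to 2, RBP4 ST against TRAP 0 to 4 and 55 to 72 (0 higher without replicate 2), VGAT TRAP against WCH 85 to 87 and 0, VGAT SNF against WCH 9 to 11 and 23 to 50 (50 without replicate 3), VGAT ST against SNF 3 to 16 and 0 to 2 (5, 3 and 5 higher without replicates 1, 2 and 5), VGAT ST against TRAP 1 to 2 and 80 to 86. Between lines they were 22 to 46 lower in TRAP (22 without VGAT replicate 4), 0 to 1 lower in ST (0 without replicate 3, 4 or 5 of either line) and 3 to 5 higher in the interaction. Somatic candidates ranged from 3 to 11 in RBP4 (3, 5 and 6 without replicates 1, 2 and 4) and 23 to 50 in VGAT (50 without replicate 3), and VGAT local candidates from 0 to 2.

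With the replicate number as a block, which pairs samples of a pool, RBP4 ST against SNF had 2 lower, and no other count moved by over 1.5 times (61 became 68 higher in RBP4 TRAP against WCH, and 87 stayed 87 in VGAT). Depth limits the rare isoforms: Cox8b had 0 to 6 counts a library in RBP4 TRAP and 51 to 100 in VGAT TRAP.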

Other observations

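The 8 mitochondrially encoded protein genes that passed the filter on low counts when no genes were left out had other differences than the 95 nuclear genes, of which those of complexes I, III and IV are their partners. All 8 fell from WCH to TRAP in both lines (median log2 differences -4.47 in RBP4 and -4.48 in VGAT), and in SNF against WCH 6 of 8 were higher in RBP4 and 8 of 8 in VGAT (median 2.09 in VGAT, and 1.32 to 1.67 for the 8 genes in RBP4). From SNF to ST 6 of 8 and 8 of 8 were lower (-2.35 and -2.62), and in ST against TRAP 8 of 8 were higher in each line (4.07 and 4.54). In the same fits the medians of the 95 nuclear genes were 0.84 and 1.29 in TRAP against WCH, -0.37 and -0.51 in SNF against WCH, 0.18 and 0.39 in ST against SNF, and -1.04 and -1.35 in ST against TRAP. Over all genes tested the medians of these fits were, in the same order, -0.24 and -0.24, -0.73 and -0.80, 0.17 and 0.32, and -0.17 and -0.03. The 95 genes thus lay above the median gene in SNF against WCH and close to it in ST against SNF. The mitochondrial chromosome held a median of 0.269% of all counts in RBP4 TRAP and 0.134% in VGAT TRAP, against 16.3% and 18.1% in SNF.

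Mitochondrial carriers, which move ADP, ATP and metabolites across the inner membrane, were lower in SNF against WCH in 7 of 9 cases in RBP4 and 8 of 9 in VGAT (medians -0.68 and -0.90). Regulators of mitochondrial biogenesis were lower in 11 of 12 in each line (median -0.90 in both), and citric acid cycle and pyruvate dehydrogenase genes in 9 and 12 of 17, with 2 higher in each line. Over all genes tested the medians of this comparison were -0.50 and -0.52, so that the carriers lay at -0.18 and -0.38 and the regulators at -0.41 and -0.39 relative to them, and these lists were not refitted under other scalings.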
